A study of Mus musculus with 8 samples.

Results

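Aminoacyl-tRNA synthetases are the enzymes that join each amino acid to its tRNA, and 36 of their genes were followed here in group 2 innate lymphoid cells (ILC2s). The members were taken by name: 20 genes of the cytosolic set and 16 genes of the mitochondrial set, whose symbols end in 2. All 36 were among the 23183 gene symbols of the count files, under their older names (Aars rather than Aars1), and all 36 passed the filter on low counts that left 12239 genes for testing. The RNA came from cultured lung ILC2s of C57BL/6 mice (C57BL/6 J in the study's methods). They had been expanded by recombinant mouse IL-33 given to the mice and then kept with IL-2, IL-7 and IL-33, a state that all 8 samples share. For 3 h, 4 samples received 0.1% DMSO, the vehicle, and 4 received 5 µM Yoda1, a small molecule that opens the mechanosensitive ion channel Piezo1. The study asked whether Piezo1 acts on cytokine output through translation, and charged tRNA is the substrate of translation. Whether the 4 samples of a group were separate mice or separate cultures was not given in the sources used here, so p-values measure the spread between these samples, which may be technical.

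Library totals ran from 12438009 to 19534653 counts with no separation of DMSO from Yoda1 (exact two-sided permutation p = 0.971, and 0.0286 is the lowest that 4 against 4 can give). Levels are given as CPM (the count relative to the library total after TMM scaling), where 1 count was worth 0.0512 to 0.0804 CPM. All 12 ILC2 markers examined were detected, and their summed level was 17590 to 18140 CPM in DMSO and 19820 to 20190 CPM in Yoda1. Among markers of other cells, 5 T cell genes summed to 68.9 to 76.8 CPM in DMSO and 74.2 to 84.2 CPM in Yoda1. The 3 NK genes summed to 46.7 to 49.5 and 50.01 to 56.0 CPM, and the 4 mast cell or basophil genes to 77.2 to 89.2 and 75.5 to 85.8 CPM. Nearly all of the last sum was Kit, at a mean of 79.0 CPM in DMSO, whereas Mcpt8, Cpa3 and Fcer1a had 2.25 CPM or less there. Cd3g gave most of the T cell sum, at 46.8 CPM in DMSO, and the other T cell genes had 9.07 CPM or less. The B cell, macrophage and epithelial sums stayed under 7.2 CPM in each library, with 2 of 4, 3 of 5 and 2 of 3 genes at or under 3 counts in every one. The ILC2 and NK sums did not overlap between the groups. The first was carried mostly by the cytokine gene Il13, at 5427 CPM in DMSO and 6663 CPM in Yoda1, and Il5 and Arg1 were also higher. Gata3, Id2, Rora and Klrg1 had log2 fold changes between -0.02 and 0.03 and were not called, and Icos was lower at -0.18. Il1rl1 and Thy1 were higher at 0.13 and 0.11, and Il7r and Il2ra were not called at 0.11 and 0.09. Of the 12 ILC2 markers, 5 were higher and 1 lower, where 10.9% of all genes were called in either direction. The NK sum was carried by Eomes, higher at 37.7 against 43.7 CPM, whereas Ncr1 and Klrb1c had log2 fold changes of -0.23 and -0.21 and were not called. The part of these markers in the results below was not tested. In bulk RNA, fewer cells of a type and less RNA per cell cannot be told apart.

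As background, a synthetase activates its amino acid with ATP and transfers it to the matching tRNA. The enzymes fall into class I and class II by the fold of the catalytic domain. Mitochondria have their own tRNAs and largely their own synthetases, which are encoded in the nucleus and imported. Gars and Kars encode the glycyl and lysyl enzymes of both compartments, and mitochondrial glutaminyl-tRNA is made by an amidotransferase, so these have no gene ending in 2. Several cytosolic enzymes sit with scaffold proteins in a multisynthetase complex. When uncharged tRNA accumulates, the kinase GCN2 raises the translation of ATF4, a transcription factor whose known targets include many cytosolic synthetase genes along with amino acid transporters and biosynthetic enzymes.

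ATF4 binds as a dimer with a C/EBP protein to an element with the core TGATGNAA, and the promoters of members that hold this core are shown to let the letters of that core be read in place. The windows came from RefSeq (GRCm38.p6) and span 250 bases before to 50 bases after each gene's start. The core was searched on both strands, where it reads TTNCATCA on the other strand. It stood in at least 1 window of 4.51% of 27025 genes. Of the cytosolic members, 13 had a window and 5 of them held the core, and all 5 belong to the known ATF4 targets. Of the mitochondrial members, 14 had a window and 0 held it. The stretches below run 5′ to 3′ on the gene's strand with the core in capitals, and Asns, the asparagine synthetase gene whose element is a textbook case, is set beside them.
Aars, chr8:111033690-111033891, + strand: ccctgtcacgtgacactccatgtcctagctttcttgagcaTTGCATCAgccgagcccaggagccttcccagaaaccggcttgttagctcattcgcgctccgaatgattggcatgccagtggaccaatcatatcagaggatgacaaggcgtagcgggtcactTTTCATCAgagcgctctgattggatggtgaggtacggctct
Gars, chr6:55037931-55038018, + strand: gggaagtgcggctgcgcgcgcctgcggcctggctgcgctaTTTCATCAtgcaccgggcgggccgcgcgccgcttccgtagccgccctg
Iars, chr13:49682097-49682179, + strand: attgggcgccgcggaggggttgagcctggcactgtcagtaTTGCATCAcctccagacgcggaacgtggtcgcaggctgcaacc
Tars, chr15:11399626-11399713, - strand: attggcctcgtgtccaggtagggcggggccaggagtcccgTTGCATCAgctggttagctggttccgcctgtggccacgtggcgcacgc
Yars, chr4:129189866-129189952, + strand: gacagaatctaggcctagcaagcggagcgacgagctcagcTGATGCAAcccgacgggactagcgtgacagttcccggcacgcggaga
Asns, chr6:7693185-7693272, - strand: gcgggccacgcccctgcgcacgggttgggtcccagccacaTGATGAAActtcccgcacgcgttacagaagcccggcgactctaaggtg

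Counted from the RefSeq start at 0, the core began at -112 and 9 in Aars, at -30 in Gars, at 7 in Iars, at -15 in Tars and at 3 in Yars. In Asns it began at -23. Among non-synthetase ATF4 targets with a window, 4 of 15 held the core. A match of these letters describes the window and is not a binding site. Cars, Hars, Lars, Nars, Rars, Vars, Wars, Hars2 and Pars2 had no window in the table used.

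Cytosolic synthetase mRNAs were far more abundant than their mitochondrial counterparts, with Lars2 as the exception. In DMSO, and per kilobase of the longest annotated transcript, the 20 cytosolic genes lay between 19.8 and 105.5 CPM per kb with a median of 47.9. The 15 mitochondrial genes other than Lars2 lay between 1.17 and 14.7 CPM per kb with a median of 5.35. Every cytosolic gene was above each of these 15. Per kilobase the highest cytosolic levels were Gars at 105.5 ± 2.62 (SD, n = 4), Kars at 97.3 ± 0.906 and Nars at 87.6 ± 2.43. Of these, the enzymes of Gars and Kars serve both compartments. Farsa, the alpha subunit of the phenylalanyl enzyme, was lowest at 19.8 ± 1.19, next to Cars at 21.6 ± 0.985. Its partner subunit Farsb stood at 30.5 ± 2.35. Among the mitochondrial genes Iars2 led at 14.7 ± 0.241 and Rars2 followed at 13.6 ± 0.865, while the single-exon gene Mars2 was lowest at 1.17 ± 0.0880. The order depends on transcript length. With the union of all exons as length the medians were 30.4 and 3.78 CPM per kb. By that measure Gars still led at 80.5, but Nars at 55.2 stood above Kars at 52.7. The lowest cytosolic gene, Cars at 10.6, still lay above the highest of the 15, Rars2 at 9.18.

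**Figure D1:**
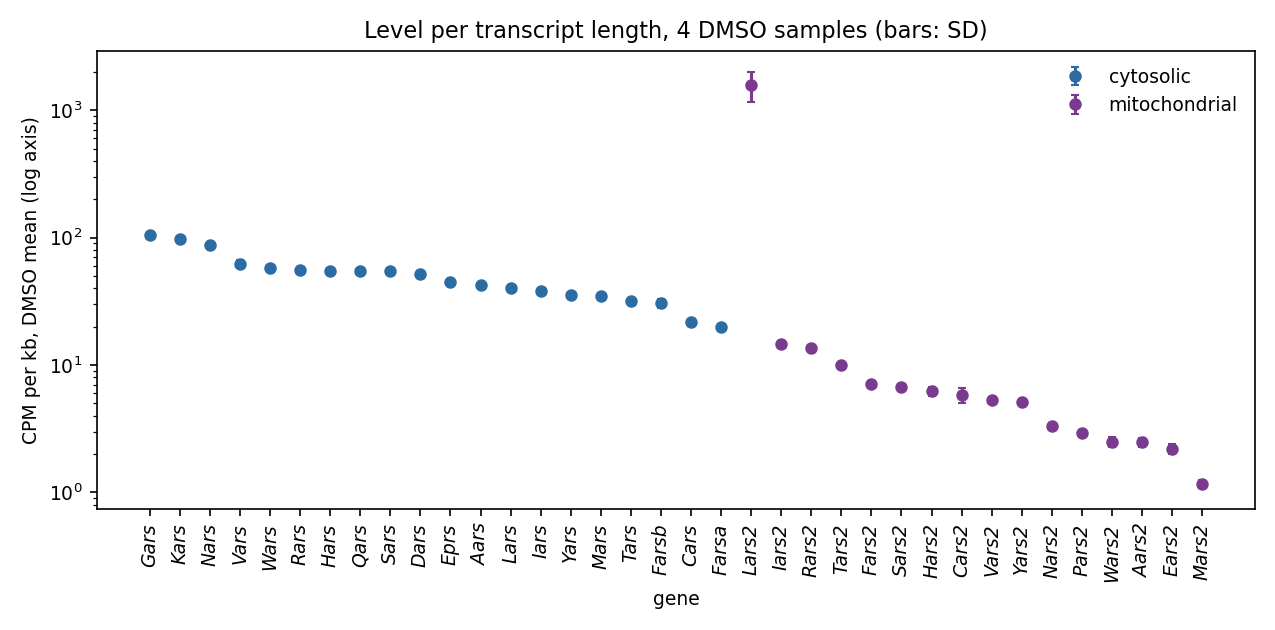
Level of each synthetase gene in the 4 DMSO samples, as CPM per kilobase of the longest annotated transcript on a log axis, with genes ordered by level within the cytosolic and the mitochondrial set. Points are means and bars are the SD, which mostly lies within the point. Lars2 stands at 1586 CPM per kb, above every other gene, and the other 15 mitochondrial genes lie below all 20 cytosolic ones.

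Yoda1 lowered a minority of the synthetase mRNAs and raised none of them past the threshold. Of the 20 cytosolic genes, 7 were lower at an adjusted p under 0.05 (edgeR quasi-likelihood test, Benjamini-Hochberg over all 12239 genes): Aars, Cars, Eprs, Gars, Lars, Mars and Vars. Of the 16 mitochondrial genes, 2 were lower: Tars2 and Iars2. Over all genes tested, 10.9% changed in either direction and 4.84% were lower. Among the 2788 genes within the CPM range of the cytosolic members 4.99% were lower, and among the 6205 genes within the range of the 15 mitochondrial members other than Lars2 5.24% were lower. Of all 36 members, 9 had every Yoda1 sample below every DMSO sample, a pattern found in 7.05% of all genes, and these were the 9 called ones. The changes were small, from a loss of 8.08% for Gars to a loss of 18.7% for Tars2. The median log2 fold change was -0.07 over the cytosolic genes and -0.06 over the 15 mitochondrial ones, against -0.0053 over all genes.

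**Figure D2:**
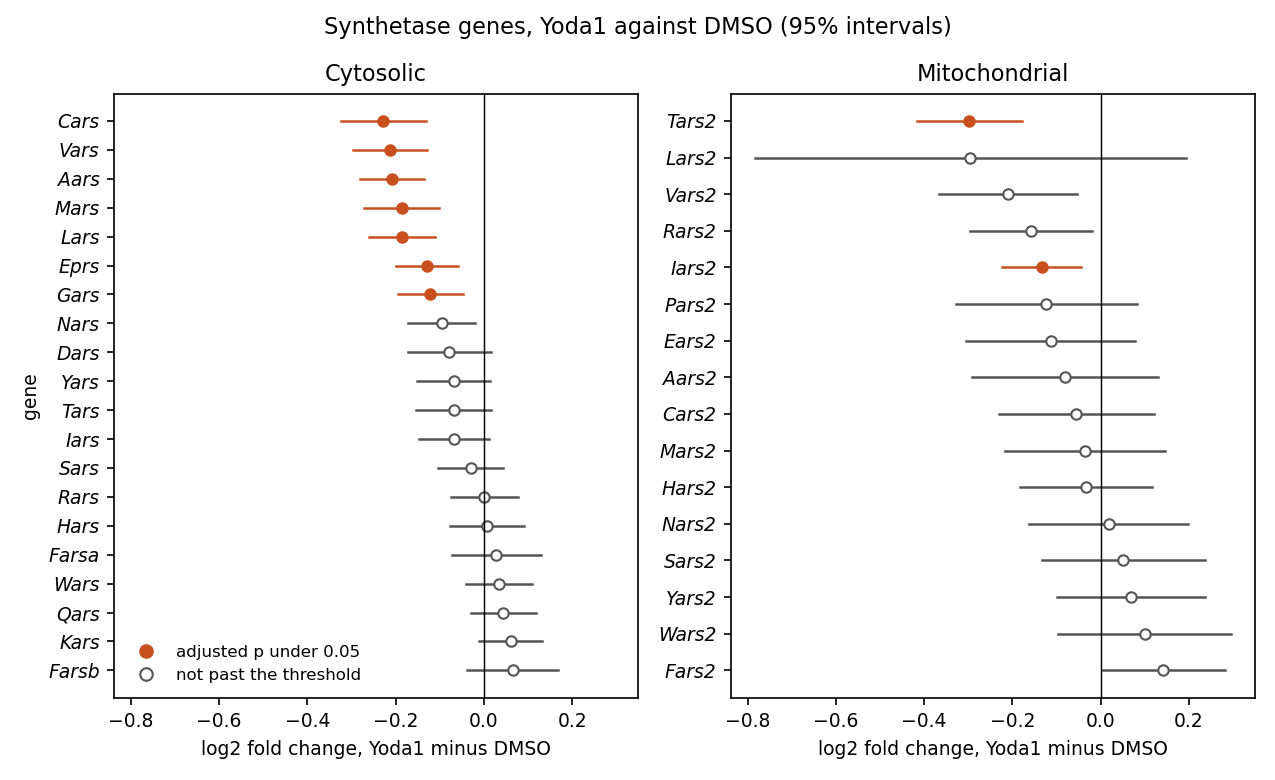
Log2 fold change (Yoda1 minus DMSO) of the 20 cytosolic and 16 mitochondrial synthetase genes from the edgeR fit over all genes, with 95% intervals. Filled orange points passed an adjusted p of 0.05, and all 9 of them lie below 0. Most mitochondrial intervals are wider than the cytosolic ones, and that of Lars2 runs from -0.78 to 0.19.

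Of the 8 enzymes of the multisynthetase complex, 3 fell (Eprs, Lars and Mars), where 4.84% of all genes and 4.99% of those in the cytosolic CPM range were lower. Eprs encodes the bifunctional enzyme that charges tRNAs for glutamate and for proline. It measured 246, 257, 249 and 252 CPM in DMSO replicates 1 to 4 and 234, 226, 225 and 232 CPM in Yoda1 replicates 1 to 4. The groups did not overlap, and the log2 fold change was -0.13 (SE 0.035, edgeR adjusted p = 0.0136). Without DMSO replicate 2 the adjusted p of Eprs was 0.0582. Lars encodes the leucyl enzyme, which also acts as a leucine sensor for the kinase complex mTORC1. It measured 161, 158, 156 and 164 CPM in DMSO and 137, 144, 141 and 140 CPM in Yoda1, with no overlap and little spread within either group. Its log2 fold change was -0.18 (SE 0.037, edgeR adjusted p = 0.00096).

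Mars encodes the methionyl enzyme, which charges both the initiator and the elongator tRNA of methionine. It measured 109, 104, 110 and 104 CPM in DMSO against 88.5, 95.6, 96.7 and 93.8 CPM in Yoda1, and Yoda1 replicate 1 was the lowest. Its log2 fold change was -0.19 (SE 0.041, edgeR adjusted p = 0.00291). In the annotation (GENCODE M21, GRCm38) Mars lies on chromosome 10 at 127296221 to 127311786, minus strand, and its 3′ end overlaps the opposite-strand gene Ddit3 by 68 bases. The other 5 enzymes of the complex did not pass the test, with log2 fold changes of -0.08 for Dars, -0.07 for Iars, 0.0014 for Rars, 0.04 for Qars and 0.06 for Kars. The complex therefore held called and uncalled members side by side. Its scaffold genes Aimp1, Aimp2 and Eef1e1 were not called either, at 0.11, 0.13 and 0.05 (0 of 3, where 10.9% of all genes were called in either direction).

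Outside the complex, Aars, Cars, Gars and Vars fell. Aars encodes the alanyl enzyme, a class II synthetase with an editing domain that removes mischarged serine. It measured 248, 254, 238 and 244 CPM in DMSO and 216, 209, 214 and 214 CPM in Yoda1, so the Yoda1 samples lay close together and well under the others. The log2 fold change of Aars was -0.21 (SE 0.035, edgeR adjusted p = 0.000132). Aars spans 111033144 to 111057664 on chromosome 8, plus strand, and the last 1326 of the 5750 bases of its principal transcript are shared with the same-strand gene Exosc6. Reads on that stretch cannot be assigned by position alone. Exosc6 itself, named for this overlap after its values were seen, measured 20.6 ± 2.79 CPM in DMSO and 21.02 ± 1.46 in Yoda1 (SD, n = 4 each), far below Aars, and was not called.

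Vars encodes the valyl enzyme, which associates with the elongation factor eEF1 complex. It measured 241, 277, 255 and 261 CPM in DMSO and 212, 236, 222 and 223 CPM in Yoda1. Both groups were spread more widely than for the other called genes of this level, and the lowest DMSO sample was still above the highest Yoda1 sample. The log2 fold change was -0.21 (SE 0.041, edgeR adjusted p = 0.000618). Cars, the cysteinyl enzyme gene and the least abundant of the called cytosolic genes, measured 71.5, 72.2, 69.3 and 65.1 CPM in DMSO and 59.1, 57.7, 57.4 and 63.2 CPM in Yoda1. DMSO replicate 4 and Yoda1 replicate 4 came close to each other without crossing, and the log2 fold change was -0.23 (SE 0.047, edgeR adjusted p = 0.00155).

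Gars, the glycyl enzyme gene, showed the smallest called change. It measured 243, 258, 249 and 254 CPM in DMSO and 226, 226, 230 and 241 CPM in Yoda1, so Yoda1 replicate 4 lay just under DMSO replicate 1. Its log2 fold change was -0.12 (SE 0.036, edgeR adjusted p = 0.0261). This call was lost when DMSO replicate 2 or 4, or Yoda1 replicate 1, 2 or 3, was left out, with adjusted p between 0.0558 and 0.0969, and with the replicate number as a block (0.0574). By contrast, Aars, Cars, Lars, Mars and Vars were lower past the threshold under all 16 alternatives of scaling, test, filter, block and left-out sample.

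**Figure D3:**
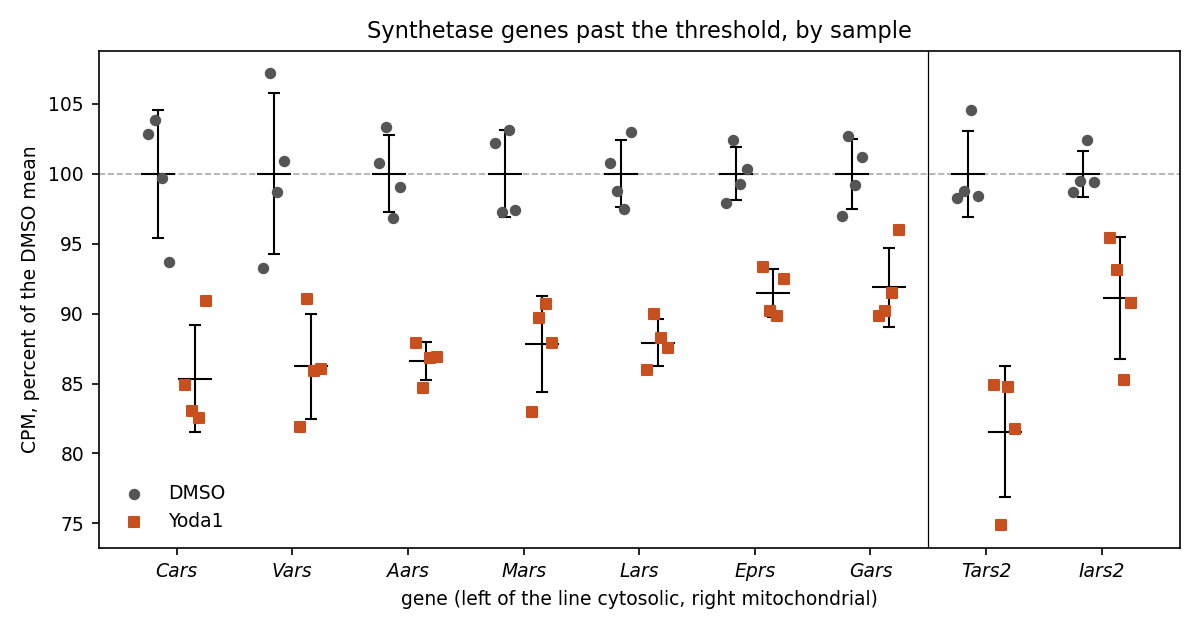
The 9 synthetase genes past the threshold, each sample shown as percent of that gene's DMSO mean, with 4 DMSO samples (grey circles) and 4 Yoda1 samples (orange squares). Horizontal marks are group means and bars are the SD, and the axis does not start at 0. Every orange square lies below every grey circle of its gene, with the narrowest gaps in Gars and Vars and the lowest sample in Tars2.

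The 13 remaining cytosolic genes did not pass the test, and their log2 fold changes lay between -0.10 and 0.07. Nars, the asparaginyl enzyme gene, was nearest to the threshold at -0.10 (SE 0.037, edgeR adjusted p = 0.0955), with 247, 236, 234 and 245 CPM in DMSO and 220, 216, 229 and 235 CPM in Yoda1. Its Yoda1 replicate 4 was above its DMSO replicate 3, so the groups overlapped. Tars, Yars, Iars and Dars had log2 fold changes between -0.08 and -0.07, and Sars had -0.03. On the other side of 0, Kars at 0.06 had every Yoda1 sample above every DMSO sample (233 to 238 CPM against 238 to 252), a pattern found in 8.45% of all genes, yet its edgeR adjusted p was 0.281. Wars, Qars, Farsa and Farsb lay between 0.03 and 0.07, so neither subunit of the phenylalanyl enzyme was called. Hars at 0.0071, Rars at 0.0014 and Farsa changed sign with upper-quartile factors, and Hars and Rars also with library size alone. For the 13 genes the 95% intervals together reached from -0.17 to 0.17, so changes of that size were not excluded for some of them.

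Of the mitochondrial genes, Tars2 showed the largest called change of all 36. It encodes the mitochondrial threonyl enzyme and lies on chromosome 3 at 95739976 to 95760206, minus strand. The exons of its principal transcript, 2400 of 6932 annotated exon bases, overlapped no exon of another gene. Tars2 measured 35.8, 35.96, 38.1 and 35.8 CPM in DMSO and 30.9, 27.3, 30.9 and 29.8 CPM in Yoda1. The gap between the groups was wider than the spread within either, and the log2 fold change was -0.30 (SE 0.058, edgeR adjusted p = 0.000764). Iars2, the mitochondrial isoleucyl enzyme gene, measured 79.2, 79.8, 82.2 and 79.8 CPM in DMSO and 76.6, 74.7, 68.4 and 72.8 CPM in Yoda1. DMSO samples were within 3 CPM of each other while Yoda1 samples were more spread, and the log2 fold change was -0.13 (SE 0.044, edgeR adjusted p = 0.0445).

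The call of Iars2 was the least stable of the 9. It was lost when DMSO replicate 2, 3 or 4, or Yoda1 replicate 2, 3 or 4, was left out, with adjusted p between 0.0521 and 0.162, with DESeq2 (adjusted p = 0.0835), with no filter on low counts (0.0525) and with the replicate number as a block (0.0882). Its exons share 2034 of 5471 bases with the opposite-strand gene Rab3gap2, and the strand setting of the counting is not given in the sources used here, so reads of the 2 genes may not be told apart. Rab3gap2, named for this overlap after its values were seen, measured 94.9 ± 3.43 CPM in DMSO and 99.2 ± 5.55 in Yoda1 (SD, n = 4 each) and was not called (log2 fold change 0.06, edgeR adjusted p = 0.391).

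The 3 other members with the largest changes that missed the threshold, Lars2 apart, were mitochondrial. Vars2, the valyl enzyme gene, measured 24.3, 23.7, 22.6 and 24 CPM in DMSO and 20.2, 17.1, 21.5 and 22.8 CPM in Yoda1, with only Yoda1 replicate 4 reaching into the DMSO range (log2 fold change -0.21, SE 0.076, edgeR adjusted p = 0.0736). Of the 8 fits that left out 1 sample, 7 did not call Vars2. Without Yoda1 replicate 4 it passed, at -0.28 and an adjusted p of 0.0333, and without Yoda1 replicate 2 its log2 fold change was only -0.13 (adjusted p = 0.293). Rars2, the arginyl enzyme gene, measured 25.6, 26.1, 26.8 and 23.1 CPM in DMSO and 23.6, 22.5, 21.1 and 23.9 CPM in Yoda1 (log2 fold change -0.16, edgeR adjusted p = 0.134). DMSO replicate 4 lay within the Yoda1 samples. Fars2, the phenylalanyl enzyme gene, went the other way, from 24.6, 22.5, 23.8 and 25.2 CPM to 25.8, 23.8, 27.4 and 28.6 CPM (log2 fold change 0.14, edgeR adjusted p = 0.189).

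The other 10 mitochondrial genes had intervals that included 0. Pars2, Ears2, Aars2, Cars2, Mars2 and Hars2 had log2 fold changes from -0.12 to -0.03, and Nars2, Sars2, Yars2 and Wars2 from 0.02 to 0.10. These genes rest on fewer reads: the 15 mitochondrial genes without Lars2 had 8.10 to 76.7 CPM and standard errors of 0.044 to 0.10 on the log2 scale, against 63.6 to 240.9 CPM and 0.035 to 0.051 for the cytosolic ones. Of the 15, 5 had a log2 fold change at or below -0.12, that of Gars, the smallest called cytosolic change, and 2 of those 5 were called. Whether the compartments differ in their response was not tested.

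The summed level was lower in Yoda1 for each compartment. The 20 cytosolic genes together gave 3235, 3246, 3152 and 3221 CPM in DMSO and 3004, 3011, 3059 and 3090 CPM in Yoda1. The 15 mitochondrial genes without Lars2 gave 324.5, 319.3, 320.1 and 317.2 CPM in DMSO and 310.6, 287.9, 299.3 and 309.3 CPM in Yoda1. In each sum every Yoda1 sample was below every DMSO sample, a pattern that 7.05% of single genes tested showed. Yoda1 stood at 0.946 of DMSO for the cytosolic and 0.942 for the mitochondrial sum. These sums include the called genes. Not every gene fell: 7 of the 20 cytosolic and 5 of the 15 mitochondrial genes had log2 fold changes above 0. The ratio of the cytosolic to the mitochondrial sum was 10.03 ± 0.153 in DMSO and 10.08 ± 0.336 in Yoda1 (SD, n = 4 each), with overlapping groups.

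Lars2, the mitochondrial leucyl enzyme gene, stood apart by its level. It took 53817 to 133212 counts in a library, 0.433% to 0.860% of all counts, and its mean CPM lay at percentile 99.97 of the genes tested. Per kilobase it reached 1586 ± 422 CPM in DMSO (SD, n = 4), which was 297 times the median of the other mitochondrial genes, or 147.5 times with exon union lengths, and 39.6 times the level of its cytosolic partner Lars. Within the DMSO group it measured 5256, 6105, 8512 and 4833 CPM, and in Yoda1 4342, 5749, 5372 and 4673 CPM. DMSO replicate 3 was the highest of all, and DMSO replicates 1 and 4 lay inside the Yoda1 range. The log2 fold change was -0.30 (SE 0.20, edgeR adjusted p = 0.436), and without DMSO replicate 3 it was -0.10 (adjusted p = 0.731).

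The spread of Lars2 was much wider than that of any other synthetase gene, whose standard errors reached at most 0.10. Malat1, a long nuclear RNA, was also highest in DMSO replicate 3, at 5247 CPM against 3797 to 4029 CPM in the other DMSO samples and 3300 to 3927 CPM in Yoda1. The ribosomal RNA precursor Rn45s was at 0 counts in all 8 libraries. Whether its reads could be counted at all is not given in the sources used here. Of 11 abundant RNAs looked for, 4 were among the gene symbols. Lars2 lies on chromosome 9 at 123366927 to 123462666, plus strand. Its principal transcript has 21 exons and holds 3894 of the 11089 annotated exon bases. In that transcript no exon overlapped an exon of another gene. No transcript of another gene matched it at 95% identity or more over at least 100 bases. The other exon bases of Lars2 were not examined. How much of this signal comes from the mRNA of the enzyme was not tested.

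**Figure D4:**
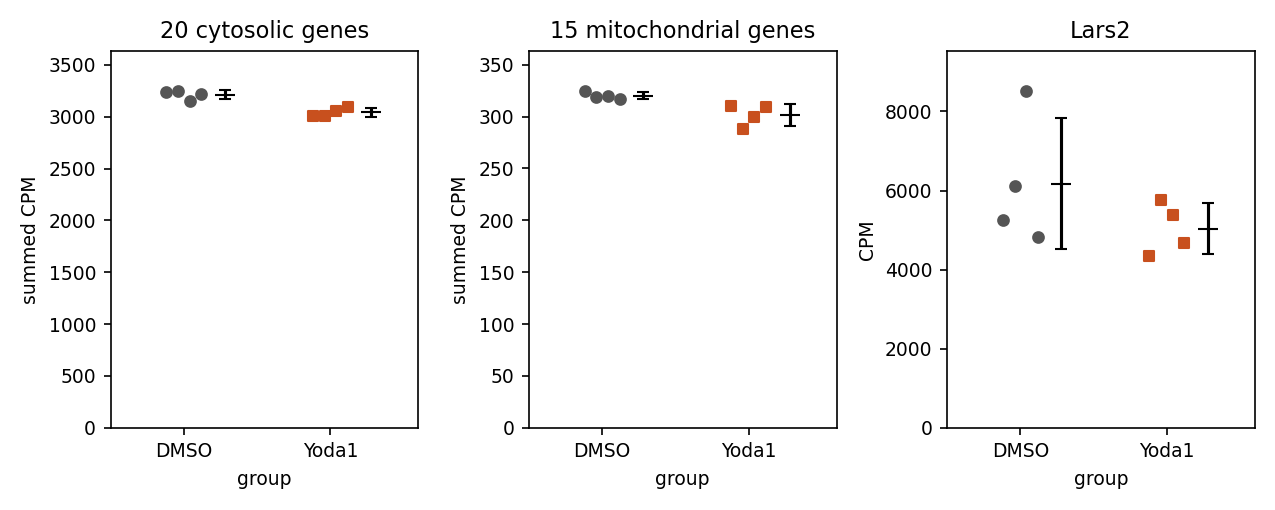
Summed level of the 20 cytosolic genes, summed level of the 15 mitochondrial genes without Lars2, and level of Lars2, in CPM, for the 4 DMSO (grey circles) and 4 Yoda1 (orange squares) samples, with the mean and SD beside each group. Axes start at 0. The sums lie slightly lower in all Yoda1 samples (3004 to 3090 against 3152 to 3246 CPM for the cytosolic sum), whereas Lars2 overlaps between the groups and has 1 DMSO sample at 8512 CPM.

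For 13 amino acids the cytosolic and the mitochondrial enzyme are separate members, and in 0 of these 13 pairs did both genes pass the test. With only 2 mitochondrial genes called, and 4.84% of all genes lower, that count cannot show whether the compartments respond apart. For alanine, cysteine, methionine and valine the cytosolic gene fell, and the mitochondrial partner had log2 fold changes of -0.08 for Aars2, -0.06 for Cars2, -0.04 for Mars2 and -0.21 for Vars2. For threonine and isoleucine it was the mitochondrial gene that fell, with Tars at -0.07 and Iars at -0.07. For leucine the cytosolic gene fell, and Lars2 was not called (log2 fold change -0.30, SE 0.20). Of the 12 pairs other than leucine, 6 had both values below 0, where 6314 of the 12239 single genes tested lay below 0. The level per kilobase was higher for the cytosolic gene in each of these 12 pairs, by a factor of 2.59 for isoleucine up to 29.7 for methionine, with a median of 8.42. The order of the pairs by this factor depends on the length used: for arginine it was 4.12 with the longest transcript and 3.99 with exon union lengths, and for tyrosine 6.90 and 3.79.

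Of the 12 cytosolic genes known as ATF4 targets, 6 were lower (Aars, Cars, Eprs, Gars, Lars and Mars) and 0 higher, with a median log2 fold change of -0.11. Of the other 8 cytosolic genes, 1 was lower, Vars, and the median was 0.02. These shares are read against the 4.84% of all genes that were lower, and the difference between the 2 lists itself was not tested. Without DMSO replicate 2 the count among the 12 was 4. The core of the ATF4 element stood in called and in uncalled genes: of the 7 called cytosolic genes 4 had a promoter window and 2 held it (Aars and Gars), and of the 13 others 9 had a window and 3 held it (Iars, Tars and Yars).

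Of 16 ATF4 targets that are not synthetases, Atf4 itself included, 6 were lower and 0 higher, where 4.84% of all genes were lower. The median was -0.17, and with upper-quartile factors 10 were lower. Atf4 measured 248, 240, 230 and 230 CPM in DMSO and 203, 203, 212 and 220 CPM in Yoda1, with no overlap (log2 fold change -0.18, SE 0.038, edgeR adjusted p = 0.00224). Slc7a5 encodes the light subunit of the transporter that brings leucine and other large neutral amino acids into the cell. It fell by 0.30 on the log2 scale (edgeR adjusted p = 6.25e-06), from 199 ± 7.08 to 161 ± 10.1 CPM. Slc7a11, the cystine transporter, fell by 0.90 from only 3.35 ± 0.633 to 1.78 ± 0.204 CPM. Asns and Phgdh, enzymes of asparagine and serine synthesis, fell by 0.18 and 0.20. Trib3, a pseudokinase that restrains ATF4, fell by 0.55 from 10.2 ± 0.612 to 6.95 ± 0.456 CPM (SD, n = 4 throughout). The remaining 10, among them Psat1, Shmt2, Mthfd2, Chac1, Ddit3 and Slc3a2, were not called. Of all 16, 15 had a log2 fold change below 0, as did 6314 of the 12239 genes tested.

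Other parts of the charging and delivery machinery did not pass the test. Among 16 cytosolic partners, which include the eEF1 elongation factor subunits, the export receptor Xpot and the CCA-adding enzyme Trnt1, 0 were called, where 10.9% of all genes were, and the median log2 fold change was 0.04. At an unadjusted p under 0.05 there were 3 of 16, and 3093 of the 12239 genes tested. Eef1a1, the factor that carries charged tRNA to the ribosome, stood at 12190 ± 323 CPM in DMSO and 12870 ± 92.0 CPM in Yoda1 (log2 fold change 0.08, edgeR adjusted p = 0.133). Among 14 mitochondrial partners 0 were called and the median was 0.0059, with 3 at an unadjusted p under 0.05. DESeq2 also called 0 in either list, and 1 mitochondrial partner was called with upper-quartile factors, with library size alone, and without DMSO replicate 3 or Yoda1 replicate 3. The mitochondrial elongation factor gene Tsfm came nearest at -0.23 (edgeR adjusted p = 0.0555).

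**Figure D5:**
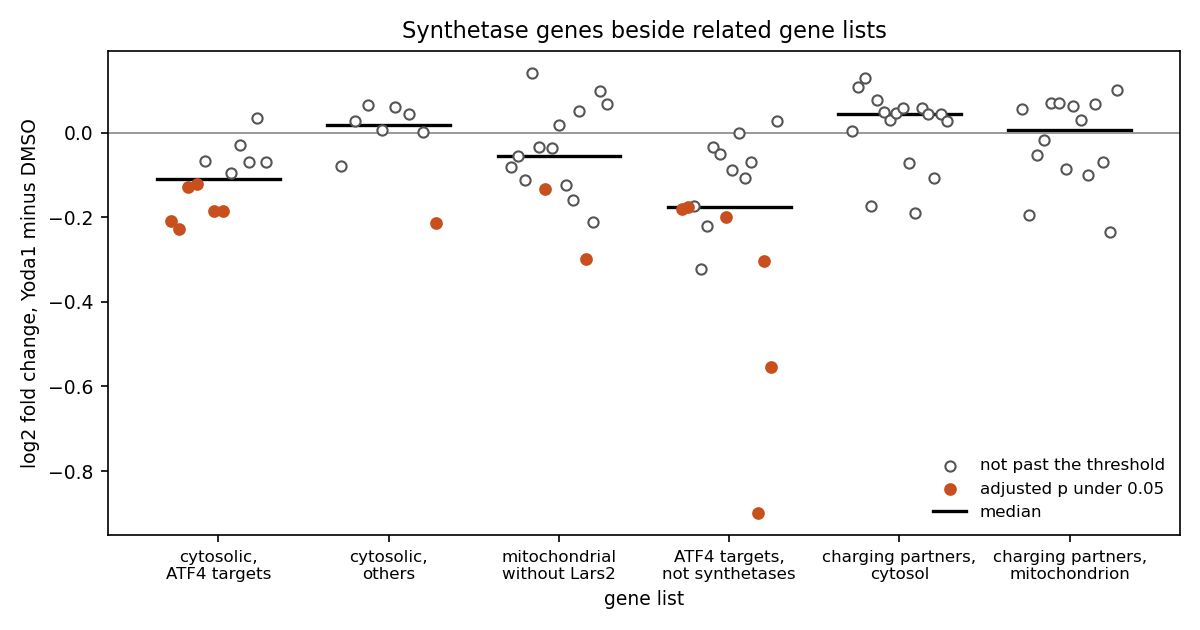
Log2 fold change (Yoda1 minus DMSO) of single genes in 6 lists: cytosolic synthetases known as ATF4 targets, the other cytosolic synthetases, mitochondrial synthetases without Lars2, ATF4 targets that are not synthetases, and the partners of tRNA charging in each compartment. Filled orange points passed an adjusted p of 0.05 and black lines are medians, which lie at -0.11, 0.02, -0.06, -0.17, 0.04 and 0.0059 from left to right.

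Besides charging, Lars reports leucine to mTORC1. Of 9 genes of leucine sensing 2 were called, where 10.9% of all genes were: Lars was lower and Rraga, a small GTPase that recruits mTORC1 to the lysosome, was higher at 0.18 (edgeR adjusted p = 0.0253). The call of Rraga was lost when DMSO replicate 2, 3 or 4, or Yoda1 replicate 1 or 4, was left out, with adjusted p between 0.0545 and 0.117, and also with upper-quartile factors (0.0677) or library size alone (0.0525). Mtor and Rptor had log2 fold changes of 0.05 and 0.03. By structural class, 5 of 18 class I genes and 3 of 17 class II genes were lower, where 4.84% of all genes were, and Eprs, which carries both folds, makes up the ninth. The medians were -0.09 and -0.03, and the difference between the classes was not tested.

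The direction of small changes depends on the scaling. With TMM factors 739 genes were higher and 592 lower, so that 44.5% of the calls were lower. With upper-quartile factors the calls were 505 higher and 958 lower (65.5% lower) and the median of all genes moved to -0.04. With library size alone they were 553 and 809 (59.4% lower). Under both of these 8 cytosolic and 3 mitochondrial genes were lower and 0 higher, with Nars and Vars2 added.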

How the data were processed

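Poly(A) RNA libraries, made with a directional kit, of 4 DMSO and 4 Yoda1 samples were analysed. The authors deposited raw counts per gene symbol, 1 table per sample. The methods list BBMap and FASTX Trimmer for the reads, with FastQC for quality and Cufflinks and Cuffdiff for expression, whereas the submitters' processing notes name TopHat and mm10. The role of BBMap, the counter, its strand setting, the gene annotation and tool versions are not given in the sources used here, so reads of overlapping genes may be counted for either. The floor of 3 counts covers counting error only. Use of molecular identifiers is not given in the sources used here. The 95% intervals of fold changes come from the fit and cover the spread between samples.

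From the deposited counts, genes were filtered with filterByExpr (minimum count 10, minimum total 15), scaled with TMM and compared by the quasi-likelihood test of edgeR 4.0.16 (R 4.3.3, robust), with Benjamini-Hochberg adjustment over 12239 genes at 0.05. The SE is the absolute log2 fold change over the root of F. The test was also run on simulated counts whose means and dispersions were taken from these data. Replicates of a group differed beyond counting noise (chi-square per gene 2.03 to 6.94). For positions and lengths, 22156 of 23183 symbols were matched to GENCODE M21 (GRCm38). Similar transcripts were sought with BLAST+ 2.17.0. Promoter windows were those of RefSeq (GRCm38.p6). Protein sequences were not used here.

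The members and all gene lists were chosen with earlier results of these data known, so no list was tested as a set. Every member is accounted for. Values in every sample are given for members past the threshold, for the 3 of largest change that missed it, and for Lars2. Members of related lists are named where past the threshold or where a result turns on them. Exosc6 and Rab3gap2 were added after values were seen. Alternatives were other scalings, DESeq2 1.42.0, limma-voom (limma 3.58.1), other filters, a replicate block, and leaving out each sample.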

Additional observations from a re-analysis of the deposited data

Results flagged for a closer look

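In each group of 4 samples, a sample was looked at again where its gap to the nearest other sample took up most of the range of the group (Dixon's 95% criterion). The 120 groups examined covered the members, sums, totals and only part of the related genes. Of these groups 3 held such a sample, and chance alone gives about 6. All 3 were in DMSO replicate 3. Qars was low there, at 160.6 CPM against 168.2 CPM in the next sample. Tars2 was high there, at 38.1 CPM against 35.96, and without this sample Tars2 was still lower in Yoda1 past the threshold. Malat1 was high there, at 5247 CPM against 4029. Among related genes outside the 120 groups, some stood apart in other libraries. Tufm, for example, had 107.3 CPM in Yoda1 replicate 4 against 98.8 to 99.7 CPM in the other Yoda1 samples. Lars2, with its highest value in the same library, did not meet this criterion.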

How the results depend on the processing

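Of the 9 called genes, 6 (Aars, Cars, Lars, Mars, Vars and Tars2) were past the threshold under all 16 alternatives, and Eprs, Gars and Iars2 were lost under some. All 9 kept their direction. The mitochondrial count of 2 lower genes became 1 with DESeq2, with no filter on low counts and with the replicate block, each time through the loss of Iars2. With upper-quartile factors 958 genes were lower over all, and the median of the cytosolic genes was -0.10, a scaling that shifts all genes. With single samples left out, 367 to 677 genes were lower over all (367 without DMSO replicate 2 and 374 without Yoda1 replicate 4), 5 to 7 cytosolic genes were lower, with 5 without DMSO replicate 2, and 1 to 2 mitochondrial genes were lower, and the cause was not tested. The median of the cytosolic genes ran from -0.09 to -0.05 and that of the 15 mitochondrial genes from -0.09 to -0.01, the last without Yoda1 replicate 2.

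The replicate numbers gave no sign of paired samples: same-numbered samples deviated from their group means with correlations of -0.03 to 0.07. Whether samples were paired is not given in the sources used here. With the replicate number as a block (replicate block), 966 genes were called in place of 1331, among them 418 lower, 6 cytosolic and 1 mitochondrial synthetase gene, and Gars had an adjusted p of 0.0574 and Iars2 of 0.0882.

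Among 8 genes never called, the sign changed in 23 cases, with values within 0.03 of 0 on the log2 scale. With upper-quartile factors these were Farsa at -0.0024, Hars at -0.0236, Rars at -0.0293 and Nars2 at -0.0129. With library size alone they were Hars at -0.0145, Rars at -0.0202 and Nars2 at -0.0035. With samples left out, Hars ran from -0.0125 to 0.0366, Rars from -0.0085 to 0.0098, Nars2 from -0.0281 to 0.057, Cars2 from -0.12 to 0.0019, Hars2 from -0.0752 to 0.0181, Mars2 from -0.078 to 0.0136 and Sars2 from -0.0255 to 0.099. Standard errors reached 0.10 among the 15 mitochondrial genes and 0.20 for Lars2, which sets the size of change that could be seen.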
